A study of Arabidopsis thaliana with 8 samples.

Results

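Seedlings of the aha1 mutant were compared directly with seedlings of the aha2 mutant, using the 3 aha1 arrays and the 3 aha2 arrays of a series of 8 arrays. Among the aha1 arrays, 2 carried aha1-6 RNA and 1 carried aha1-7 RNA. Among the aha2 arrays, 2 carried aha2-4 RNA and 1 carried aha2-5 RNA. The remaining 2 arrays were wild type and served to estimate the spread and to place each difference. All plants were of the Col background, were harvested as light-grown whole seedlings at 5 days of age after growth on upright plates, and RNA was measured on single-colour Affymetrix arrays. The arrays fall into a first set (1 aha1-6, 1 aha2-4 and 1 wild type array) and a second set (aha1-6, aha1-7, aha2-4, aha2-5 and wild type, 1 array each), by a string that ends the sample descriptions. The labels do not state whether arrays of 1 genotype used separately grown plants. Each p-value therefore reflects the spread among these samples alone, and that spread may be technical.

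AHA1 and AHA2 encode proton pumps of the plasma membrane that spend ATP to export protons. Such pumps acidify the wall, where expansins loosen wall polymers at low pH, and set up the membrane voltage and proton gradient that drive nutrient uptake. In roots of Arabidopsis, acidification of the surroundings also helps to dissolve ferric iron, and is one of the responses to iron shortage together with iron reduction and the release of coumarins. The comparison asks which transcripts differ between plants mutated in either of these closely related pumps.

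Values are normalized log2 signals, on a scale where a difference of 1 is a 2-fold change, and a fold change is aha1 over aha2. A probe set, the group of short probes that measures a transcript, was called when its limma p-value, adjusted with the Benjamini-Hochberg method over the 11373 brighter probe sets, was under 0.05. The brighter ones are the 50% with the highest mean signal over all arrays. The lowest such mean was 8.587, the boundary of the filter. A gene can pass through the group where it is high, and its adjusted p then depends on the filter. No probe set is named AHA1 or AHA2 in the platform annotation, and the genotypes were taken as labelled. The aha1-7 array stood apart, with a median correlation of 0.887 with the other arrays over the brighter probe sets, against 0.959 to 0.971 for the remaining 7. At 1201 probe sets it was over 2-fold away from the average of the other arrays, against 22 to 53 for the remaining arrays. Counts of called probe sets are therefore given with all arrays and without aha1-7, which leaves allele aha1-6 alone as aha1. Where the aha1 against aha2 difference of a single gene is given only without aha1-7, it did not pass with all arrays.

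With all arrays, 20 of the 11373 brighter probe sets (0.176%) were called, 17 lower in aha1 (0.149%) and 3 higher (0.0264%). Their differences ran from 1.08 to 2.46 in size on the log2 scale, with a median size of 1.36, and all 20 were also called without aha1-7. At each of the 20 the 3 aha1 arrays did not overlap with the 3 aha2 arrays, which was also true of 20.1% of all brighter probe sets. Over all 22746 probe sets with no filter 0 were called by limma, with 2417 at an unadjusted p under 0.05 (2030, or 17.8%, of the brighter ones taken alone) and a smallest adjusted p of 0.0964. With 1 other array left out, the count was 0 without the first-set aha1-6 array or either aha2-4 array, 2 without aha2-5, 6 without either wild type array and 60 without the second-set aha1-6 array. Of the 20, 7 have 1 named gene, 12 have none and 1 has several.

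Of the 7 named genes, 6 were lower in aha1 and 1 was higher. AT5G38910, a germin-like protein of the cell wall, was at 7.16, 7.75 and 7.53 in aha1 (the last value from aha1-7), against 9.81, 10.39 and 9.62 in aha2 (the last from aha2-5), and at 8.57 and 8.35 in wild type. All aha1 arrays lay below both wild type arrays and all aha2 arrays above them. The difference was -2.46 (SE 0.23), a 5.50-fold lower level in aha1 (limma, adjusted p = 0.00727), and -2.44 without aha1-7. The aha1 and wild type means (7.48 and 8.46) lay below the boundary of the filter, which this gene passed through its aha2 arrays (mean 9.94). Its direct neighbour on chromosome 5, AT5G38900, which encodes a thioredoxin-like protein of the DSBA family, was at 8.31, 8.25 and 8.15 in aha1, against 9.72, 9.56 and 9.57 in aha2, and at 8.44 and 8.06 in wild type. The aha1 values lay within the wild type range and the aha2 values above it, with a difference of -1.38 (SE 0.15; limma, adjusted p = 0.0114). Here too the aha1 and wild type means (8.24 and 8.25) lay below the boundary of the filter, and the aha2 mean (9.62) above it.

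AT3G13610, known as F6'H1, the enzyme that forms the core of the coumarins released by iron-deficient roots, was at 10.13, 10.30 and 10.49 in aha1, against 11.90, 11.95 and 11.89 in aha2, and at 10.48 and 10.41 in wild type. The 3 aha2 arrays lay close together and far above the other arrays. Its difference was -1.61 (SE 0.16), or 3.05-fold (limma, adjusted p = 0.00727). AT3G54040, a member of the PAR1 protein family, was at 9.40, 9.78 and 9.48 in aha1, against 11.13, 11.27 and 11.54 in aha2, and at 9.90 and 10.02 in wild type. Here too the aha1 arrays were below wild type and the aha2 arrays above it, and the difference was -1.76 (SE 0.16; limma, adjusted p = 0.00727).

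AT2G43590, a member of the chitinase family, was at 11.11, 11.31 and 10.07 in aha1, against 12.93, 13.06 and 12.84 in aha2, and at 11.61 and 11.76 in wild type. The aha1-7 array was the lowest of the 8, more than 1 log2 unit below the aha1-6 arrays, and the difference of -2.11 (SE 0.29; limma, adjusted p = 0.0301) was -1.73 (SE 0.14) without it. AT4G15390, an acyltransferase of the BAHD family, was at 10.25, 10.17 and 10.24 in aha1, against 11.11, 11.36 and 11.47 in aha2, and at 10.77 in both wild type arrays. Wild type lay midway, and the difference was -1.09 (SE 0.16; limma, adjusted p = 0.0361).

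The 1 named gene called higher was AT2G30600, which encodes a BTB/POZ domain protein. It was at 11.33, 11.40 and 11.76 in aha1, against 10.25, 10.16 and 10.36 in aha2, and at 10.76 and 10.48 in wild type. The groups did not overlap, wild type lay between them, and the difference was 1.24 (SE 0.18; limma, adjusted p = 0.0361). A second probe set of this gene had a difference of 1.25 (SE 0.33), which did not pass (limma, adjusted p = 0.146), and passed without aha1-7 at 0.79 (SE 0.16; adjusted p = 0.0288). Among the called probe sets with no gene name, 267565_at (-2.16) and 259481_at (-1.77) were lower in aha1, and 263403_at (1.29) and 248729_at (1.26) were higher. At 267565_at too the aha1 and wild type means (8.41 and 8.53) lay below the boundary of the filter, and the aha2 mean (10.57) above it.

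**Figure D1:**
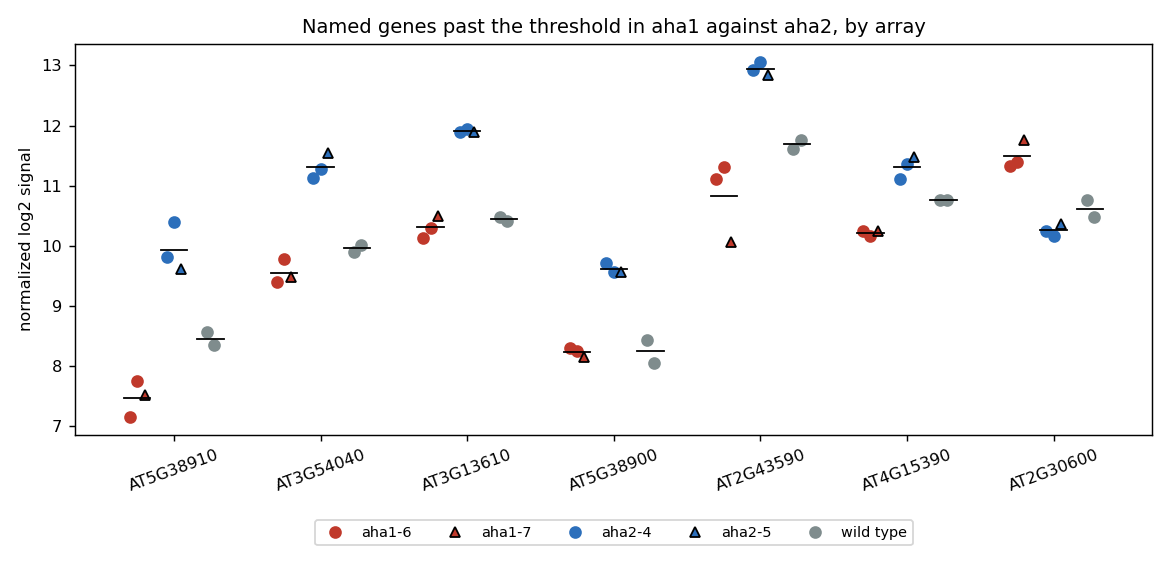
Normalized log2 signal (vertical axis) of the 7 named genes called in aha1 against aha2 with all arrays, 1 point per array, with triangles for the second alleles and black bars for group means. At each gene the aha1 points do not overlap with the aha2 points, and at AT2G43590 the aha1-7 array (10.07) lies below both aha1-6 arrays.

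Wild type was used to place these differences. At the 20 called probe sets the wild type mean lay between the 2 mutant means in 17 and outside them in 3. Of the 17 lower in aha1, wild type was nearer to aha1 in 13 and nearer to aha2 in 4. In limma contrasts with wild type without aha1-7, 28 brighter probe sets (0.246%) were called in aha1 and 61 (0.536%) in aha2, while with all arrays the counts were 0 (with 580 at an unadjusted p under 0.05) and 3 (0.0264%). AT3G13610 differed by -0.23 in aha1 (adjusted p = 0.617) and by 1.47 in aha2 (adjusted p = 0.000747). AT5G38900 differed by 0.03 in aha1 (adjusted p = 0.968) and by 1.39 in aha2 (adjusted p = 0.00122). AT5G38910 lay between, at -1.0 in aha1 (adjusted p = 0.174) and 1.44 in aha2 (adjusted p = 0.0146). Both contrasts use the same 2 wild type arrays.

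Leaving out the aha1-7 array raised the number of called probe sets to 358 of 11373 (3.15%), with 196 lower in aha1 (1.72%) and 162 higher (1.42%). Of these, 173 have 1 named gene, 95 lower and 78 higher. The differences were 0.54 to 2.73 in size with a median size of 0.74, and 58 exceeded 1 in size, 44 of them lower. With aha1-7 put back, the 3 aha1 arrays and the 3 aha2 arrays still did not overlap at 295 of the 358, which were 175 lower and 120 higher, beside 20.1% of all brighter probe sets. Since 5 of these 6 arrays had chosen the 358, that count is a description. Wild type lay between the mutant means at 287 and outside at 71. It was nearer to aha1 at 102 of the 196 lower ones and at 67 of the 162 higher ones. Over all 22746 probe sets without aha1-7, limma called 0, with 2619 at an unadjusted p under 0.05 (2348, or 20.6%, of the brighter ones taken alone) and a smallest adjusted p of 0.12.

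Of the 12 named genes with the smallest p among those lower without aha1-7, 6 are described above. AT4G16260, a beta-1,3-glucanase family member, was at 10.28 and 10.28 on the aha1-6 arrays and 10.76 on aha1-7, against 11.82, 11.61 and 11.32 in aha2, and at 10.81 and 10.46 in wild type. The difference was -1.35 (SE 0.15; limma, adjusted p = 0.00111) without aha1-7, and -1.14 with it (adjusted p = 0.068). AT3G51330, an aspartyl protease, differed by -1.15 (adjusted p = 0.00365) without aha1-7 and -1.04 (adjusted p = 0.0655) with all arrays, and AT1G65690, of a family of membrane-associated late embryogenesis abundant proteins, by -1.27 (adjusted p = 0.00143) and -1.07 (adjusted p = 0.0881). For both, all 3 aha1 arrays lay below all 3 aha2 arrays.

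AT3G28220, a TRAF-like domain protein, was at 8.19 and 6.83 on the aha1-6 arrays and 8.83 on aha1-7, against 9.38, 8.64 and 9.34 in aha2, and at 9.43 and 8.97 in wild type. The aha1-7 array fell inside the aha2 range, and the second-set aha1-6 array was well below every other array. The difference was -1.72 (SE 0.24; limma, adjusted p = 0.00411) without aha1-7 and -1.17 (SE 0.42; adjusted p = 0.224) with it.

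Among the 12 named genes higher without aha1-7, the largest difference was at AT5G57760, a gene of unknown function. It was at 10.84 and 10.72 on the aha1-6 arrays and 9.03 on aha1-7, against 9.36, 9.35 and 9.15 in aha2, and at 9.33 and 9.30 in wild type. The high level was measured in the 2 aha1-6 arrays, and aha1-7 was the lowest of all 8 arrays. The difference of 1.48 (SE 0.14; limma, adjusted p = 0.000298) without aha1-7 was 0.91 (SE 0.38; adjusted p = 0.264) with it. AT2G39400, of the alpha/beta hydrolase family, was likewise at 9.27 and 9.51 on the aha1-6 arrays and 8.66 on aha1-7, against 8.49, 8.46 and 8.63 in aha2, and at 8.29 and 8.37 in wild type. It differed by 0.88 (SE 0.14; adjusted p = 0.00858) without aha1-7 and by 0.62 (adjusted p = 0.219) with it. The aha2 and wild type means (8.53 and 8.33) lay below the boundary of the filter, and the aha1 mean (9.15) above it.

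AT2G05540, a glycine-rich protein and the brightest of these genes, was at 13.48, 13.53 and 12.59 in aha1, against 12.10, 11.96 and 12.25 in aha2, and at 12.78 and 12.75 in wild type. The aha1-7 value lay between wild type and aha2, and the difference was 1.42 (SE 0.14; limma, adjusted p = 0.000438) without it. AT4G15680, a glutaredoxin of the plant-specific CC type, was at 9.58, 9.82 and 9.46 in aha1, against 8.34, 8.66 and 8.36 in aha2, and at 8.47 and 9.34 in wild type. Its difference was 1.31 (SE 0.18; adjusted p = 0.00365) without aha1-7 and 1.17 (adjusted p = 0.0677) with all arrays. The others were rpoC2, ccb382, a mitochondrion-encoded gene of cytochrome c maturation (0.94), AT4G31000, a calmodulin-binding protein (0.93), AT1G26580 (0.93), AT5G26200, a mitochondrial carrier family member (0.84), AT1G65070, a MutS family protein (0.75), AT3G03040, an F-box protein (0.73), and AT2G30600, described above.

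**Figure D2:**
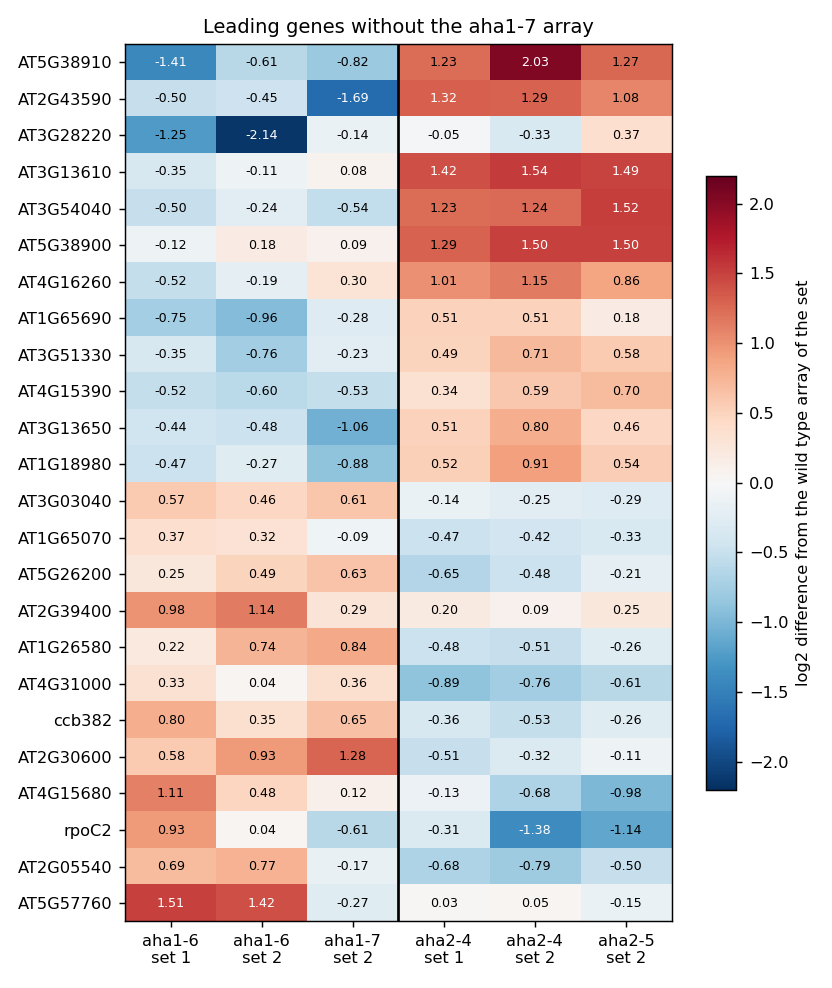
Log2 difference of each mutant array (columns: 3 aha1 arrays, then 3 aha2 arrays) from the wild type array of its set, for the 12 genes with the smallest p in each direction without aha1-7 (12 lower at the top, 12 higher at the bottom). The aha1-7 column departs from the aha1-6 columns at AT3G28220 (-0.14 against -1.25 and -2.14) and AT5G57760 (-0.27 against 1.51 and 1.42).

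Genes of the iron deficiency response were lower in aha1 at 3 of 7 brighter members without aha1-7, and at 1 (AT3G13610) with all arrays. Over all brighter probe sets 1.72% were called lower without aha1-7 and 0.149% with all arrays. The median difference of the 7 was -0.68 with all arrays and -0.45 without aha1-7, beside 0.01 and -0.00 over all brighter probe sets. AT1G47400, which encodes an IRONMAN peptide that promotes iron uptake, was at 10.87, 10.82 and 9.15 in aha1, against 12.10, 12.24 and 11.56 in aha2, and at 10.59 and 10.34 in wild type. All aha2 arrays were above all others, and the difference was -1.16 (SE 0.19; limma, adjusted p = 0.00978) without aha1-7, against -1.69 (adjusted p = 0.115) with all arrays. AT3G07720, a kelch-repeat protein induced by iron shortage, was at 10.73, 10.31 and 10.32 in aha1, against 11.39, 11.37 and 11.07 in aha2, and at 10.93 and 10.54 in wild type, and passed without aha1-7 at -0.81 (adjusted p = 0.018). PYE, a transcription factor of the iron response in the root, did not pass, at -0.26 without aha1-7 (adjusted p = 0.365), and ILR3, another such factor, was at 0.22 (adjusted p = 0.427).

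Several families of secreted proteins had members lower in aha1 and none called higher. Over all brighter probe sets 1.42% were called higher without aha1-7 and 0.0264% with all arrays. The lack of higher calls in lists this short is therefore no result about these families. Their lists were added after the values had been seen, and the counts are descriptions. Among 8 brighter chitinases, which break down the fungal wall polymer chitin, 3 were called lower without aha1-7 and 1 with all arrays, with medians of -0.63 and -0.73. Of all brighter probe sets, 1.72% were called lower without aha1-7 and 0.149% with all arrays. CHI, at 9.66, 9.86 and 8.87 in aha1, against 10.57, 10.67 and 10.83 in aha2, and at 9.82 and 9.73 in wild type, differed by -0.91 (SE 0.14; limma, adjusted p = 0.00858) without aha1-7, and AT1G02360 by -0.71 (adjusted p = 0.024). With all arrays their differences were -1.22 (adjusted p = 0.0926) and -0.91 (adjusted p = 0.105). In both chitinases the aha1-6 arrays were near wild type and the aha2 arrays above it. AT2G43620, of the same chromosome 2 cluster as AT2G43590, went the other way without passing, at 0.70 (adjusted p = 0.0669).

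Germin-like proteins are small wall glycoproteins, several of which make hydrogen peroxide. Besides AT5G38910, AT1G18980 was lower, at 10.34, 10.30 and 9.68 in aha1, against 11.33, 11.48 and 11.11 in aha2, and at 10.81 and 10.57 in wild type. It passed without aha1-7 at -1.01 (SE 0.15; limma, adjusted p = 0.00722) and not with all arrays, at -1.20 (adjusted p = 0.061). The third brighter member, AT3G10080, was at -0.03 without aha1-7 (adjusted p = 0.928). The shares called lower over all brighter probe sets were 1.72% without aha1-7 and 0.149% with all arrays.

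Class III peroxidases use hydrogen peroxide in the wall to cross-link or loosen it. Of 23 brighter members, 7 were lower in aha1 without aha1-7 and 0 with all arrays, 0 were called higher, and the median was -0.29 without aha1-7 and -0.34 with all arrays. Without aha1-7, 1.72% of all brighter probe sets were called lower and 1.42% higher. The 3 aha1 arrays lay below the 3 aha2 arrays at 9 members and above them at 1, beside 9.79% and 10.4% of all brighter probe sets. AT1G30870 was at 9.58, 9.98 and 9.22 in aha1, against 10.58, 10.57 and 10.62 in aha2, and at 9.82 and 9.90 in wild type, a difference of -0.78 (SE 0.14; limma, adjusted p = 0.0177) without aha1-7. AT3G01190 differed by -0.69 (adjusted p = 0.0259), AT4G11290 by -0.85 (adjusted p = 0.0302) and AT5G14130 by -0.65 (adjusted p = 0.0306). With all arrays these 4 were at -1.0 (adjusted p = 0.0948), -0.78 (adjusted p = 0.101), -0.91 (adjusted p = 0.101) and -0.70 (adjusted p = 0.105). At AT5G14130 the aha1 and wild type means (8.31 and 8.48) lay below the boundary of the filter, and the aha2 mean (9.01) above it.

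Dirigent proteins guide the coupling of phenolic units into lignans and lignin. Of 8 brighter members 4 were called lower in aha1 without aha1-7, where 1.72% of all brighter probe sets were, and 0 with all arrays. The median was -0.56 without aha1-7 and -0.66 with all arrays. At 5 members all aha1 arrays lay below all aha2 arrays, beside 9.79% of all brighter probe sets. AT3G13650 was at 9.11, 9.32 and 8.74 in aha1, against 10.06, 10.60 and 10.26 in aha2, and at 9.55 and 9.80 in wild type, with a difference of -1.04 (SE 0.15; limma, adjusted p = 0.00517) without aha1-7 and -1.25 (adjusted p = 0.059) with it. Wild type lay between the mutants. AT2G21100, at -0.70 (adjusted p = 0.024), and AT4G11210, at -0.71 (adjusted p = 0.0378), were lower too.

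Berberine bridge enzyme-like oxidases, flavin enzymes that in Arabidopsis oxidise oligosaccharides and monolignols, had higher levels on aha1-7 than on the aha1-6 arrays. Without that array 3 of 7 brighter members were called lower in aha1, beside 1.72% of all brighter probe sets, and the median was -0.67. With it, 0 were called, the median was -0.32 and no member had non-overlapping groups. AT1G30700 was at 10.03 and 10.17 on the aha1-6 arrays and 11.16 on aha1-7, against 10.89, 11.04 and 10.65 in aha2, and at 10.52 and 10.24 in wild type. The aha1-7 array thus held the highest value of the 8, and the difference without it was -0.77 (SE 0.16; limma, adjusted p = 0.0301). AT5G44400 differed by -0.89 (adjusted p = 0.0168) without aha1-7, and relative to wild type of the same set the list median was 0.91 on aha1-7 against -0.06 and -0.08 on the aha1-6 arrays.

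Enzymes that conjugate small molecules also had members lower in aha1. Of 25 brighter UDP-glycosyltransferases, which attach sugars, 4 were lower without aha1-7 and 0 with all arrays. The shares called lower over all brighter probe sets were 1.72% and 0.149%. The list median was -0.13 in both fits. The 4 were the neighbouring genes UGT73B4 (-0.77; limma, adjusted p = 0.016) and UGT73B5 (-0.76; adjusted p = 0.0277), and UGT72E1 (-0.75; adjusted p = 0.0158) and UGT72E2 (-0.84; adjusted p = 0.0431), which glucosylate lignin precursors. UGT73B4 was at 8.65, 8.95 and 9.29 in aha1, against 9.46, 9.78 and 9.65 in aha2, and at 8.97 and 9.38 in wild type, without overlap between the mutants. UGT72E2 was at 9.96, 10.13 and 10.31 in aha1, against 11.08, 11.08 and 10.50 in aha2, and at 10.17 and 10.47 in wild type, also without overlap. UGT72E1 was at 10.32, 10.32 and 11.02 in aha1, against 11.12, 11.05 and 11.02 in aha2, and at 10.44 and 10.43 in wild type. There the aha1-7 value reached the aha2 values, and the difference with all arrays was -0.51 (limma, adjusted p = 0.257).

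Among 9 brighter tau-class glutathione S-transferases, detoxifying enzymes that attach glutathione, 2 were lower without aha1-7, GSTU27 (-0.66; limma, adjusted p = 0.0378) and GSTU28 (-0.60, close to the threshold). The share called lower without aha1-7 over all brighter probe sets was 1.72%. The list median was -0.41, against -0.60 with all arrays, where 0 were called. GSTU27 was at 10.89, 10.84 and 10.01 in aha1, against 11.46, 11.62 and 11.44 in aha2, and at 11.17 and 10.86 in wild type. At GSTU28 the aha1 and wild type means (8.39 and 8.47) lay below the boundary of the filter, and the aha2 mean (9.24) above it. GSTU16 had a positive difference of 0.46 without aha1-7 (adjusted p = 0.0916).

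BCAT4, which acts in the methionine chain elongation of glucosinolate synthesis, was the 1 of 4 brighter glucosinolate genes that passed without aha1-7. It was at 11.26, 10.98 and 10.66 in aha1, against 12, 11.84 and 11.91 in aha2, and at 12.45 and 12.34 in wild type. Wild type was above both mutants here, and the difference was -0.83 (SE 0.13; limma, adjusted p = 0.01), against -0.95 (adjusted p = 0.0655) with all arrays. Without aha1-7 the other members were between -0.18 and 0.47. In that fit 1.72% of all brighter probe sets were called lower.

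Wall-loosening genes did not pass. All 8 brighter expansins had a negative difference in both fits, with medians of -0.44 with all arrays and -0.41 without aha1-7, and 0 were called. Negative differences made up 48.9% of all brighter probe sets with all arrays and 50.3% without aha1-7. These shares are not matched for gene length, and shorter genes had negative medians with all arrays, as given below. EXPB1 was at 9.17, 9.39 and 8.69 in aha1, against 9.69, 10.04 and 9.73 in aha2, and at 9.45 and 9.67 in wild type, a difference of -0.50 (SE 0.14; limma, adjusted p = 0.0803) without aha1-7. At 5 of the 8 the 3 aha1 arrays lay below the 3 aha2 arrays, beside 9.79% of all brighter probe sets. The 5 xyloglucan endotransglucosylase/hydrolases, which cut and rejoin wall xyloglucan, had medians of -0.19 and -0.28, with XTH19 at -0.67 (SE 0.19; adjusted p = 0.0786) without aha1-7.

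Among the lists described here, chloroplast-encoded genes held the most members called higher in aha1. Of 51 brighter members 6 were called higher and 0 lower without aha1-7, beside 1.42% and 1.72% of all brighter probe sets. With all arrays 0 were called, and the median difference was 0.28 without and 0.42 with aha1-7. A positive difference was found at 42 of the 51 without aha1-7, beside 49.7% of all brighter probe sets. rpoC2, a subunit of the plastid-encoded RNA polymerase, was at 10.99 and 9.12 on the aha1-6 arrays and 8.48 on aha1-7, against 9.75, 7.71 and 7.95 in aha2, and at 10.06 and 9.09 in wild type. Levels were higher in the first set than in the second in every genotype, and within each set the aha1-6 array exceeded the aha2-4 array. The difference was 1.31 (SE 0.20; limma, adjusted p = 0.0083) without aha1-7 and 1.06 (adjusted p = 0.133) with it.

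ycf3, an assembly factor of photosystem I, was at 10.43, 9.11 and 9.62 in aha1, against 9.70, 8.14 and 8.09 in aha2, and at 10.28 and 9.58 in wild type. It showed the same split between sets and passed without aha1-7 at 0.91 (SE 0.18; limma, adjusted p = 0.0254). psbB, a photosystem II core subunit, passed at 0.63 (adjusted p = 0.0306), psbN, which takes part in photosystem II assembly, at 0.89 (adjusted p = 0.034), psaI, a small photosystem I subunit, at 0.61 (adjusted p = 0.0423), and rpoC1, another polymerase subunit, at 0.80 (adjusted p = 0.0476). At rpoC2, rpoC1 and psbB the aha2 means (8.47, 7.96 and 8.38) lay below the boundary of the filter. These genes passed it through the aha1 and wild type arrays. Relative to wild type of the same set, the list median was 0.00 and -0.23 on the aha1-6 arrays and 0.33 on aha1-7, and -0.32, -0.43 and -0.30 on the aha2 arrays. With each array scaled to its median in place of quantile normalization, the median without aha1-7 was 0.16, where that of all brighter probe sets was -0.06.

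The 8 brighter nuclear photosynthesis genes had medians of 0.02 and 0.01, and 0 were called. LHCB4.2, an antenna protein, differed by -0.04 (limma, adjusted p = 0.895) without aha1-7, and PSBW, a photosystem II subunit, by 0.13 (adjusted p = 0.635). Of 4 brighter CC-type glutaredoxins, AT5G18600 joined AT4G15680 as higher in aha1 without aha1-7, at 0.64 (adjusted p = 0.0428). It was at 11.71, 11.57 and 10.98 in aha1, against 10.95, 10.89 and 11.10 in aha2, and at 11.60 and 11.27 in wild type, with aha1-7 inside the aha2 range. The remaining members, AT4G33040 and AT1G06830, were at -0.21 and -0.36 and did not pass. Over all brighter probe sets 1.42% were called higher without aha1-7.

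**Figure D3:**
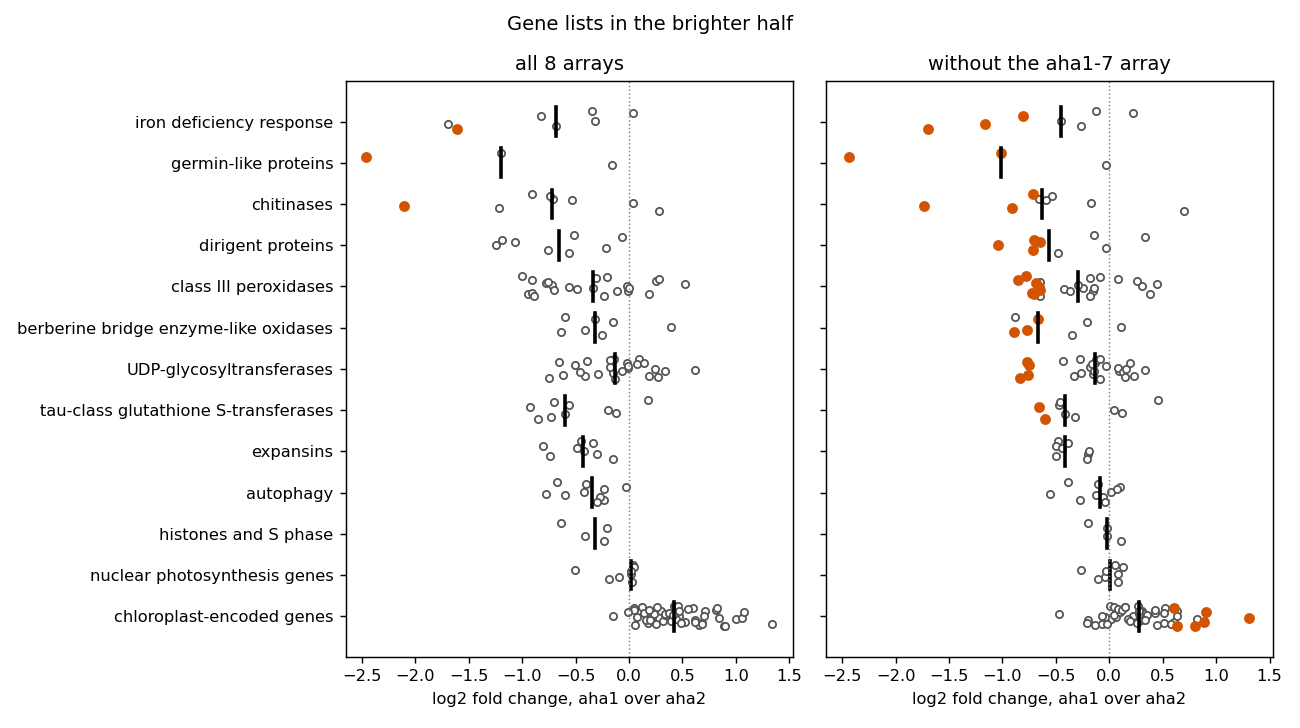
Log2 fold change of aha1 over aha2 (horizontal axis) for the brighter members of 13 gene lists, 1 point per gene, with all arrays on the left and without aha1-7 on the right. Filled points were called, vertical bars are list medians, and chloroplast-encoded genes lie mostly to the right of 0 (median 0.28 without aha1-7) while chitinases, dirigent proteins and iron deficiency genes lie mostly to the left.

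Some lists moved with the aha1-7 array. The 10 brighter autophagy genes, which include the ubiquitin-like ATG8 proteins that coat autophagosomes, had a median of -0.35 with all arrays and -0.09 without aha1-7, and their median against the wild type array was -0.92 on aha1-7 against -0.04 and -0.01 on the aha1-6 arrays. For the 4 brighter histone genes the medians were -0.32 and -0.02, with -1.13 on aha1-7 against 0.07 and -0.17 on the aha1-6 arrays. In both lists 0 were called.

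Genes that act on proton pumps and the pumps of the vacuole did not pass. PSY1R, a receptor kinase that activates AHA2, was at 9.30, 10.15 and 9.94 in aha1, against 9.20, 9.19 and 9.47 in aha2, and at 9.09 and 9.60 in wild type. The ranges overlapped and the difference was 0.51 (SE 0.18; limma, adjusted p = 0.224). FER, a receptor kinase whose activation inhibits AHA2, was at 11.37, 11.89 and 12.85 in aha1, against 11.52, 11.79 and 12.02 in aha2, with aha1-7 above all other arrays. The 4 brighter subunits of the vacuolar proton pump had medians of 0.16 with all arrays and -0.00 without aha1-7.

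Markers of the organs in a whole seedling were measured in part. The 6 brighter root markers had medians of 0.17 with all arrays and 0.01 without aha1-7, and 0 were called. Among them PYK10, an abundant root beta-glucosidase, was at 0.16 and 0.07, while XTH19 and XTH18 were negative in both fits. The 5 shoot and leaf markers had medians of -0.06 and -0.04. EXPA18, the only brighter one of 3 named root hair markers, was at -0.81 with all arrays (SE 0.30; limma, adjusted p = 0.227) and -0.50 without aha1-7 (adjusted p = 0.223). In whole seedlings, fewer cells of a type and less RNA per cell cannot be told apart. The guard cell, seed and phloem marker lists, with 3, 3 and 1 named genes, had no brighter member.

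The sets and the alleles were compared for the same differences. Within the first set, aha1-6 minus aha2-4 was -2.65 at AT5G38910, -1.73 at AT3G54040, -1.77 at AT3G13610 and 1.08 at AT2G30600. In the second set the same alleles differed by -2.64, -1.49, -1.65 and 1.24 at these genes in the same order. The genes had been called from these same arrays, so their likeness between sets is a description. A test of the change of the aha1 against aha2 difference between sets, added after the data had been seen, called 0 of 11373 probe sets (limma, 47 at an unadjusted p under 0.05), with 2 residual degrees of freedom. The alleles of aha2 differed at 2 of the 11373 probe sets (0.0176%), with 0 of the 358 among them. The alleles of aha1 differed at 3739 (32.9%), with 143 of the 358 and 3 of the 20 among them, and since aha1-7 is 1 array, allele and array cannot be told apart.

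Gene length moved with the comparison, more with aha1-7 than without it. Length here runs from the first to the last base of a gene, introns included, and the 5859 nuclear genes share the same 8 arrays and are not independent. Spearman's rho between the fold change and gene length was 0.61 with all arrays and 0.30 without aha1-7. The median fold change was -0.36 in the shortest 10% of genes and 0.30 in the longest 10% with all arrays, against -0.08 and 0.16 without aha1-7. Nuclear genes called lower in aha1 without aha1-7 had a median length of 1751 bases (95 genes), and those called higher 2618 (71 genes), beside 2398 over all. In groups 2 and 3 of 10 by length, counted from the shortest, the medians were -0.30 and -0.21 with all arrays. Without aha1-7 both were -0.09. Lengths of the brighter expansins ran from 1684 bases (EXPA18) to 2500 (EXPB3). The part of gene length in the single calls and in the list medians was not tested.

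Length also differed among the remaining arrays. Against the mean of the other arrays, rho with gene length was -0.01 and 0.28 on the aha1-6 arrays and 0.69 on aha1-7, against -0.30 and -0.25 on the aha2-4 arrays, 0.08 on aha2-5, and -0.05 and 0.21 in wild type. The log2 ratio of 3-prime to 5-prime control probe sets, a measure of RNA integrity and labelling, was higher on both aha1-6 arrays than on both aha2-4 arrays in 4 of 6 control pairs, and higher than on all 3 aha2 arrays in 2 of the 6. On aha1-7 the ratio lay outside the range of the other 7 arrays in 2 of the 6 pairs. Both values were the lowest, at 3.32 (actin) and 0.58 (ubiquitin). The part of this ratio in the differences was not tested.

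**Figure D4:**
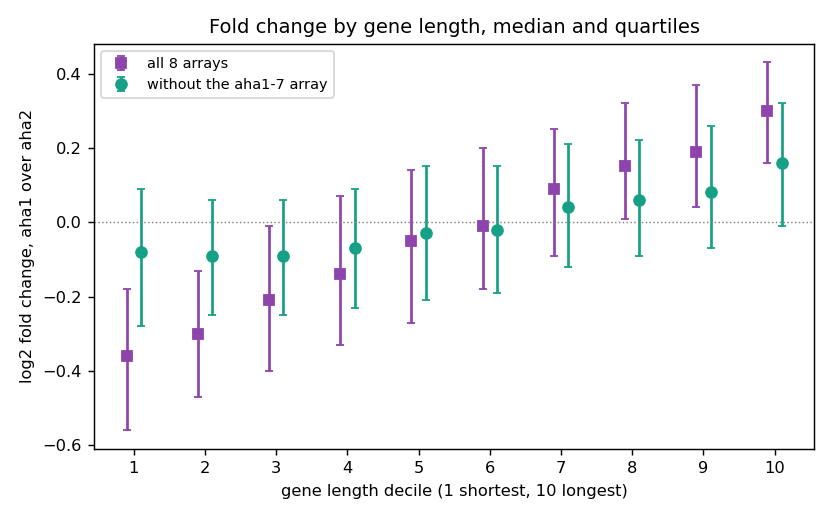
Median log2 fold change of aha1 over aha2 (vertical axis, bars from the lower to the upper quartile over genes) in 10 groups of nuclear genes of about equal number by gene length. The medians climb from -0.36 to 0.30 with all 8 arrays (squares) and from -0.08 to 0.16 without aha1-7 (circles).

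Genes called without aha1-7 that lie close together on a chromosome were counted. There were 11 pairs of neighbours with at most 2 protein-coding genes between them, of which 6 had the same direction and 5 opposite directions. The same count over all brighter genes is not given here, so these numbers are a description. The pairs with the same direction were AT5G38900 and AT5G38910, CHI and AT2G43590, UGT73B5 and UGT73B4, AT5G44380 and AT5G44400, rpoC2 and rpoC1, and psbB and psbN. Close relatives such as the UGT73B genes, the chitinases and the berberine bridge enzyme-like genes can share signal by cross-hybridisation, which these values do not resolve.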

How the data were processed

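The authors deposited 1 linear intensity value per probe set and array. Per the submitters' processing notes these came from Affymetrix Expression Console 1.1, and how probes were summarised is not given here. After adding 1 and taking log2, the 22810 probe sets were quantile normalized, and 64 array controls were dropped. The fit used limma 3.58.1 (R 4.3.3) with genotype and set in the model and all 8 arrays, which leaves 4 residual degrees of freedom. Without aha1-7, normalization was repeated and 3 remained. Benjamini-Hochberg adjustment covered the 11373 brighter probe sets, with a threshold of 0.05. The number of arrays limits the precision, and the code was tested on simulated data.

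Gene names came from the array's annotation and the RefSeq table of assembly TAIR10.1: 13513 of 22746 had 1 gene, 503 several and 8730 none, and of those with 1 gene 13436 matched RefSeq. For genes with several probe sets the brightest was used. Sequences were not used here.

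The genes, lists and tests were chosen with earlier results of these data known. The germin-like, chitinase, peroxidase, dirigent, berberine bridge enzyme-like and glutaredoxin lists were added after the values had been seen. Named were all single-gene probe sets called with all arrays, the 12 with the smallest p in each direction without aha1-7, up to 4 members of each list with the smallest p, and the 5 largest differences in each direction at an unadjusted p under 0.01. The text also names further list members called or going against their list, neighbours and PYK10, chosen after their values were seen. Alternatives covered the filter, offset, normalization, set term, array weights, alleles and single arrays left out.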

Additional observations from a re-analysis of the deposited data

Results flagged for a closer look

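At 9 of the 24 leading genes the aha1-7 array differed from the aha1-6 arrays in a test of the difference between the alleles (limma with allele and set as terms, adjusted over the brighter probe sets, 2 residual degrees of freedom, with aha1-7 as a single array). The same test called 3739 of the 11373 brighter probe sets (32.9%), a share close to that among these 24 genes. The value of aha1-7 minus aha1-6 was -1.22 at the chitinase family gene AT2G43590, -0.65 at the dirigent gene AT3G13650 and -0.61 at the germin-like gene AT1G18980, in each case farther from aha2. At AT4G16260 it was 0.57 and at AT1G65690 0.61, which brought aha1-7 nearer to aha2. It was -0.89 at AT2G05540 and -0.78 at AT2G39400, again toward aha2.

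AT3G28220 and AT5G57760 had the largest allele differences among these genes, at 1.75 and -1.72. Both aha1-6 arrays lay on one side of the aha2-4 array of their set and aha1-7 on the other. Relative to the second-set aha2-4 array, aha1-7 was at 0.19 for AT3G28220 and at -0.32 for AT5G57760, and this change of side was not tested. Allele and array cannot be told apart, as aha1-7 is 1 array.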

How the results depend on the processing

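The count of called probe sets depended on the processing. With all arrays it was 20, and it was 0 with all probe sets tested, 10 with the dimmest 25% left out, 37 with the set as a random block, 6 with the 6 mutant arrays alone, 755 with array weights (0.113 for aha1-7) and 570 with the first alleles only. Leaving out 1 array at a time gave 0 to 358: 0 without aha1 replicate 1, aha2 replicate 1 or aha2 replicate 2, 2 without aha2 replicate 3 (aha2-5), 6 without either wild type array, 60 without aha1 replicate 2 and 358 without aha1 replicate 3 (aha1-7). Without aha1-7 the count of 358 was 0 with all probe sets tested (an alternative chosen after seeing the data), and from 18 to 570 with 1 further array left out: 24 and 18 without aha1 replicate 1 or 2, 53, 222 and 570 without aha2 replicate 1, 2 or 3, and 107 and 106 without wild type replicate 1 or 2. A lone array left in a group is assumed to vary like the others.

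The set, which holds every genotype, was the block in the reported fits, and the labels give no other replicate numbers that pair arrays. Without the set term (no replicate block) the counts were 20, of which 17 were the same probe sets, and 51 in place of 358. With an offset of 16 they were 20 and 371, and with an intensity trend 20. Median scaling gave 29, and without aha1-7 376, of which 113 were higher and 263 lower, against 162 and 196 under quantile normalization. For the 119 named genes, 1916 of 2142 values under these alternatives kept their direction and side of the threshold, 46 no longer passed, 149 newly passed, 31 that passed in neither fit changed sign, and 0 of those called reversed. In the first set alone the medians of the glucosinolate (-0.04), vacuolar pump (-0.13), root (-0.23) and shoot (0.01) lists moved. With all arrays they were -0.25, 0.16, 0.17 and -0.06 in the same order. Other lists moved as well, such as the histones, at -0.05 against -0.32.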

Other observations

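Further genes, chosen after their values were seen, were lower in aha1 than in aha2 without aha1-7. OSM34, an osmotin-like defence protein, differed by -0.91, OPCL1, a ligase of jasmonate synthesis, by -0.88, and NDB2, an external NAD(P)H dehydrogenase of mitochondria, by -0.75. Hsp70-2, the only brighter one of 2 named genes in the heat shock list, differed by -0.69 (limma, adjusted p = 0.0357). Of the ATP sulfurylases, which activate sulfate for assimilation, APS3 was lower, at -0.79, and APS4 higher, at 0.59. SDP1, a lipase that breaks down stored oil in seedlings, was higher at 0.58.

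AT2G16005 was at 10.46, 10.51 and 10.40 in aha1, against 8.83, 9.09 and 10.16 in aha2, and at 10.04 and 10.86 in wild type. The aha2-5 array was more than 1 log2 unit above the aha2-4 arrays, and the difference of 1.09 (SE 0.28; limma, adjusted p = 0.141) was 1.21 (adjusted p = 0.0378) without aha1-7. AT3G22240 was at 13.35, 13.33 and 11.09 in aha1, against 14.42, 14.04 and 14.15 in aha2, and at 13.32 and 13.36 in wild type, and passed without aha1-7 at -0.88 (SE 0.15; adjusted p = 0.0106).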
